A study of Mus musculus with 8 samples.

Results

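The 10 genes described here encode parts of the JAK-STAT pathway and its feedback: the kinases Jak1 and Jak2, the transcription factors Stat3, Stat5a and Stat5b, the inhibitors Socs1, Socs2, Socs3 and Cish, and the kinase Pim1. They were taken by name from a table of 37980 mouse genes, and all 10 were among the 11451 genes with enough signal to be tested. Their RNA was measured in multipotent progenitors (MPPs), bone marrow cells that form every blood lineage for a limited time, sorted as Lin-CD48-ckit+Sca1+CD135+CD150- cells from C57BL/6 mice. NA MPPs came from NA LSL/+; Vav-Cre mice, in which Cre under the blood-cell promoter Vav switches on NUP98-HOXA10hd (NA), a fusion gene that couples a nuclear pore protein with the homeobox of a HOX factor. WT MPPs came from age-matched CD45.2 mice, and whether these carried Vav-Cre was not stated. Ages were not given for the sorted animals. There were 4 libraries in each group (NA1 to NA4, WT1 to WT4), each made from amplified cDNA of 1000 cells. Nothing says that libraries came from separate mice, so p-values measure the spread between libraries, which may be technical. The comparison asks which transcripts differ in MPPs that carry NA.

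Cytokine receptors have no kinase of their own and rely on bound Janus kinases (JAKs). When a cytokine binds, the JAKs phosphorylate the receptor and then STAT proteins, which pair, enter the nucleus and switch on target genes. Several of those targets, the SOCS proteins and CISH, bind receptors or JAKs and shut the signal down, so their RNA is a common readout of recent signalling. In blood cells, erythropoietin and interleukin 3 signal through JAK2 and STAT5, and interleukin 6 signals through gp130 and STAT3.

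Activated STAT5 and STAT3 bind DNA at the palindrome TTCNNNGAA, where N is any base. Of the 10 genes, 9 had a RefSeq window on GRCm38.p6 running from 250 bases before the transcription start to 50 bases after it, and Socs2 had none. The motif, which reads the same on both strands, was found for 2 of those 9 genes, Cish and Socs3, in 1 window each. The 9 genes had 12 windows between them, and 8.30% of 32851 such windows over all genes held the motif. The stretches that hold it are shown because Cish and Socs3 are the classical feedback targets of STAT5 and STAT3. Capitals mark the motif, and both stretches are written 5′ to 3′ on the strand of the gene.
Cish, chr9:107296652-107296681, plus strand, positions -7 to 23 from the start, in an annotated 5′ UTR exon: cccagttTTCCTGGAAagTTCTTGGAAatc
Socs3, chr11:117969467-117969566, minus strand, positions -200 to -101 from the start, in an intron of 1 annotated transcript: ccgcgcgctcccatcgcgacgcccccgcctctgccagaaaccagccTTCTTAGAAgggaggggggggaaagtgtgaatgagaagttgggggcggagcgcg
Cish carried 2 motifs side by side, an arrangement that only 0.457% of all windows shared in number, and Socs3 carried 1. The letters describe these windows and do not show that a STAT was bound there. The windows of Jak1, Jak2, Stat3, Stat5a, Stat5b, Socs1 and Pim1 held no match.

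Depth, estimated from the deposited values, ranged from 3876907 to 4916988 reads per library. WT4 was close to a weighted sum of WT1 to WT3: the variance left over beyond counting error was 0.00286 of the squared level over 7092 genes, against 0.0127 to 0.0375 for the other 3 WT libraries. For NA4 this value was 0.0136 over 7155 genes, against 0.0214 to 0.0483 for NA1 to NA3. Calls are therefore also given without the fourth library of each group. The RNA fitted the gate, with Kit, Ly6a (Sca1) and Flt3 (CD135) between 1103 and 1614 normalised counts in every library and Slamf1 (CD150) and Cd48 between 3.69 and 83.8. Y-linked transcripts were high in NA libraries and Xist in WT libraries, so sex and genotype cannot be told apart. None of the 10 genes lies on a sex chromosome.

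Of the 10 genes, 1 was called higher in NA MPPs, Stat5a, and 0 were called lower (limma, Benjamini-Hochberg over all genes tested, threshold 0.05). Over all 11451 genes tested, 17.9% were called, 10.1% higher and 7.87% lower, so 1 called in 10 was no larger a share than that of all genes. The unadjusted p was below the same threshold for 3 of the 10, Stat3, Stat5a and Socs3. That share was not counted over all genes, where it cannot be less than the 17.9% called and may be well above it. The 3 of 10 is therefore not read as a larger share than that of all genes. The 4 NA and 4 WT values did not overlap for 2 of the 10, Stat3 and Stat5a, where 22.0% of all genes tested had no overlap. The median log2 fold change of the 10 genes was 0.08, against -0.01 over all genes tested. Without the fourth libraries, 0 of the 10 and 4.58% of all genes were called. In bulk RNA of this kind, more RNA per cell and more cells that express a gene cannot be told apart.

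**Figure D1:**
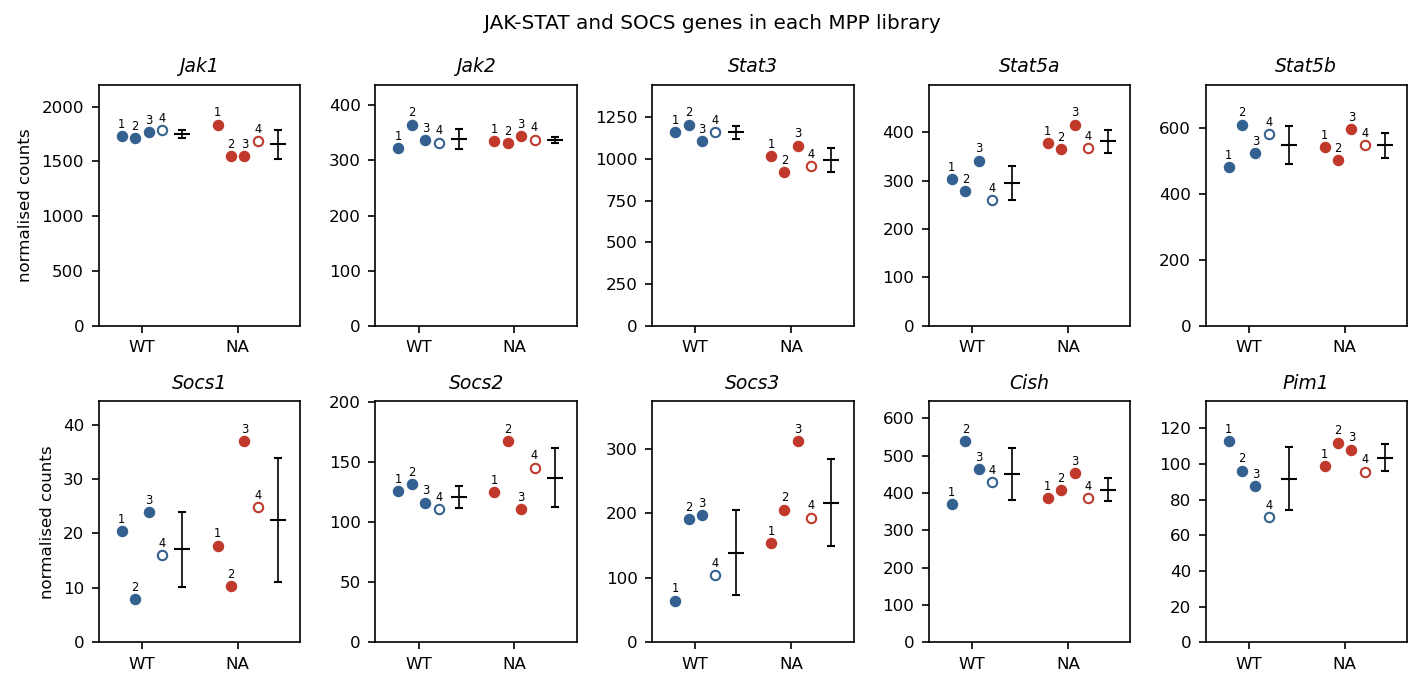
Normalised counts (vertical axes, each from 0) of the 10 genes in the 4 WT (blue) and 4 NA (red) libraries, numbered by replicate; open circles are the fourth libraries, and the bar gives the mean with its SD. The groups separate for Stat3, lower in NA, and for Stat5a, higher in NA, and overlap for the other 8 genes.

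Jak1 serves most cytokine receptor families, including those for interferons and interleukin 6. The gene measured 1835, 1548, 1551 and 1685 normalised counts in NA1 to NA4 and 1728, 1712, 1770 and 1786 in WT1 to WT4. NA1 was the highest of all 8 libraries and NA2 and NA3 the lowest, so the groups overlapped. NA differed from WT by -0.08 ± 0.08 on the log2 scale (SE, n = 4 each), with a 95% interval from -0.25 to 0.08 and an adjusted p of 0.494 by limma.

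Jak2 is the kinase of the erythropoietin and interleukin 3 receptors. Its values were 335, 332, 343 and 338 normalised counts in NA1 to NA4 and 322, 365, 337 and 332 in WT1 to WT4. The 4 NA values were the steadiest of the 10 genes, with a coefficient of variation of 1.46%, below the 5.40% that counting error alone would give at this depth. Its log2 fold change was -0.01, and the 95% interval of -0.22 to 0.21 leaves room for a change of up to about that size in either direction (adjusted p = 0.972, limma).

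Stat3 is the transcription factor of the gp130 cytokines. NA1 to NA4 held 1016, 919, 1080 and 958 normalised counts and WT1 to WT4 held 1161, 1205, 1107 and 1162. Every NA library lay below every WT library, though NA3 and WT3 were only 1080 against 1107. The means were 993 ± 70.2 in NA and 1159 ± 40.3 in WT (SD, n = 4 each). The log2 fold change of -0.22 ± 0.08 (SE) had a 95% interval from -0.40 to -0.05 but did not pass over all genes (adjusted p = 0.0733, limma). It did pass without NA3 (adjusted p = 0.0363) and with total count scaling (0.0253) or upper quartile scaling (0.0393). Without the fourth libraries the fold change was -0.21 and the adjusted p 0.330.

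Stat5a, the first of the 2 STAT5 genes, transmits erythropoietin and interleukin 3 signals. It measured 377, 365, 415 and 367 normalised counts in NA1 to NA4 and 304, 279, 342 and 259 in WT1 to WT4. All 4 NA libraries were higher than all 4 WT libraries, with WT3 the nearest. The means were 381 ± 23.5 in NA and 296 ± 35.5 in WT (SD, n = 4 each), a 1.29-fold difference. The log2 fold change was 0.37 ± 0.12 (SE), with a 95% interval from 0.12 to 0.62 and an adjusted p of 0.0407 by limma. The call was held in 7 of 20 alternative analyses, while the fold change stayed between 0.30 and 0.49. Leaving out any single library other than WT3 ended it, with adjusted p from 0.0547 without NA1 to 0.147 without WT4. Without the fourth libraries the fold change was 0.33 and the adjusted p 0.257.

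Stat5b encodes a protein nearly identical to STAT5A. Its values were 542, 504, 597 and 548 normalised counts in NA1 to NA4 and 481, 610, 524 and 582 in WT1 to WT4. The means of 548 ± 38.4 and 549 ± 57.9 (SD, n = 4 each) left a log2 fold change of 0.00 with a 95% interval from -0.22 to 0.22 (adjusted p = 0.9999, limma). In NA MPPs the log2 ratio of Stat5a to Stat5b ran from -0.58 to -0.47 and in WT MPPs from -1.16 to -0.62. The ratio was thus higher in every NA library, and it is given without a test because the pair was picked with its values known.

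The genes Stat5b, Stat5a and Stat3 lie side by side on chromosome 11 (mm10). Stat5b spans 100780731 to 100850724 on the minus strand, Stat5a 100859351 to 100885169 on the plus strand and Stat3 100885098 to 100939540 on the minus strand. In NA, Stat5b measured level, Stat5a higher and Stat3 lower. Of these 3 neighbouring genes only the Stat5a difference passed the test. The ends of Stat5a and Stat3 overlap by 72 bases on opposite strands, and the strand setting of the counting was not given, so reads in those bases cannot be assigned to either gene. Stat5a and Stat5b are close copies, and reads in their shared stretches could have been split between them.

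**Figure D2:**
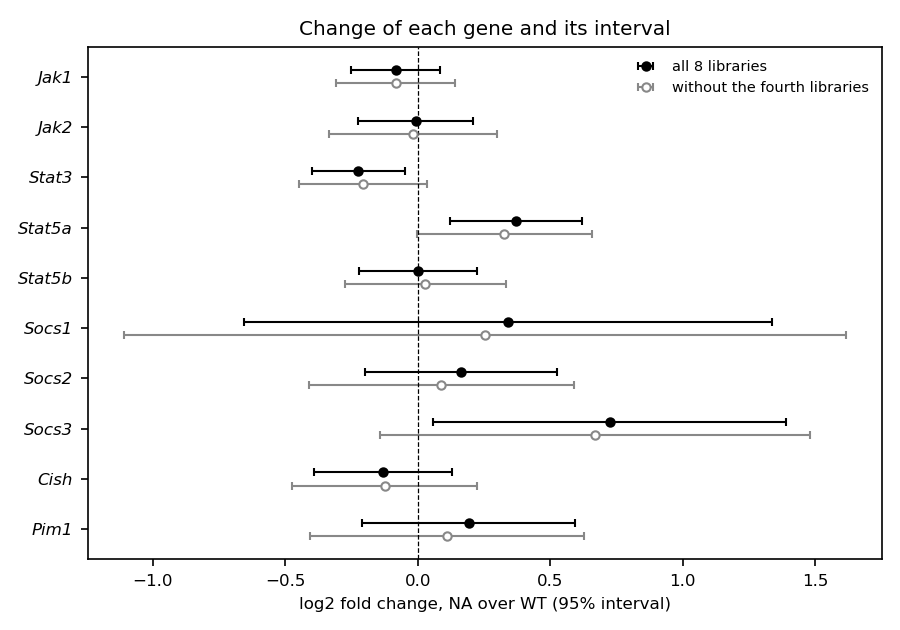
Log2 fold change of each of the 10 genes, NA over WT (horizontal axis), with its 95% interval from limma; filled points use all 8 libraries and open points leave out the fourth library of each group. The interval lies below 0 for Stat3 and above 0 for Stat5a and Socs3 with all libraries, and spans 0 for all 10 genes without the fourth ones.

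Cish, a feedback inhibitor induced by STAT5, blocks STAT binding to receptors. NA1 to NA4 held 387, 408, 453 and 387 normalised counts and WT1 to WT4 held 371, 539, 465 and 430. WT1 was the lowest and WT2 the highest of the 8, so the WT values enclosed those of NA. NA over WT, the log2 fold change came to -0.13 ± 0.12 (SE, n = 4 each; 95% interval -0.39 to 0.13; adjusted p = 0.489, limma). Any link between the level of Stat5a RNA and that of Cish was not tested. An antisense gene, Gm17041, overlaps Cish and reached at most 26.6 normalised counts.

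Socs2 restrains growth hormone and STAT5 signalling. It measured 125, 167, 111 and 145 normalised counts in NA1 to NA4 and 126, 131, 116 and 111 in WT1 to WT4. NA2 and NA4 lay above the whole WT range and NA3 just below it. Its log2 fold change was 0.16 ± 0.17 (SE, n = 4 each; 95% interval -0.20 to 0.52; adjusted p = 0.536, limma).

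Socs1, the inhibitor of JAKs in interferon signalling, was the weakest of the 10 genes. Its values were 17.7, 10.3, 36.9 and 24.8 normalised counts in NA1 to NA4 and 20.4, 7.93, 23.9 and 16.0 in WT1 to WT4. In both groups the second library was lowest and the third highest. The log2 fold change of 0.34 had a 95% interval from -0.66 to 1.34 (adjusted p = 0.647, limma), which leaves room for a change anywhere in that range. The coefficient of variation was 50.4% among NA and 40.4% among WT libraries, against 21.0% and 24.1% from counting error.

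Socs3 inhibits gp130 and granulocyte colony-stimulating factor receptors and is switched on by STAT3. NA1 to NA4 held 154, 206, 312 and 194 normalised counts and WT1 to WT4 held 64.8, 191, 197 and 104. It had the largest fitted difference of the 10 genes, a log2 fold change of 0.72 ± 0.31 (SE, n = 4 each; 95% interval 0.06 to 1.39), but did not pass over all genes (adjusted p = 0.122, limma). WT2 and WT3 were at the level of the NA libraries, and WT1 and WT4 were below all of them. The coefficient of variation was 47.0% among WT and 31.2% among NA libraries, against 8.67% and 6.72% from counting error. The highest WT library held 3.04 times the lowest. Without the fourth libraries the fold change was 0.67 and the adjusted p 0.349. Of 20 alternative analyses, Socs3 passed in 1, with the replicate number as a block (adjusted p = 0.0240, limma).

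The spread of Socs3 moved with that of immediate early genes, which cells switch on within minutes of a stimulus, including the dissociation of tissue. A list of 20 such genes, among them Fos, Jun and Egr1, had 13 members called higher in NA and 0 lower of 18 tested, where 10.1% of all genes were called higher. Of the 18, 8 were higher and 0 lower without the fourth libraries. The summed level of the list was 45318 to 53960 normalised counts in the NA libraries. In WT1 to WT4 it was 6643, 21133, 18023 and 12743. WT1 was lowest and WT4 next in both the sum and Socs3, and NA3 was highest in both. The part of these genes in the Socs3 values was not tested.

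**Figure D3:**
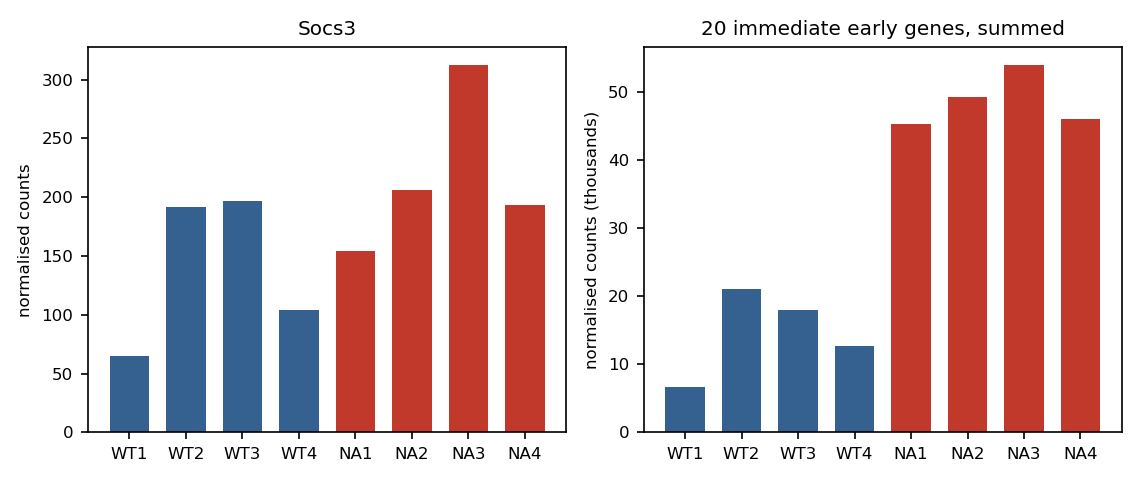
Normalised counts of Socs3 (left) and of 20 immediate early genes summed, divided by 1000 (right), in each of the 8 libraries; bars start at 0, blue is WT and red is NA. WT1 and then WT4 are lowest in both panels and NA3 is highest in both, while WT2 and WT3 reach the NA range for Socs3 but not for the sum.

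Pim1, a STAT-induced serine/threonine kinase that promotes survival and growth, measured 98.9, 112, 108 and 95.7 normalised counts in NA1 to NA4. In WT1 to WT4 it was 113, 96.3, 87.7 and 70.1. WT1 was the highest of the 8 libraries and WT4 the lowest. The log2 fold change was 0.19 ± 0.19 (SE, n = 4 each), with a 95% interval from -0.21 to 0.60 and an adjusted p of 0.514 by limma. Its paralog Pim2 was called lower, from 313 ± 39.3 normalised counts in WT to 193 ± 25.9 in NA (log2 fold change -0.69 ± 0.14, SE, adjusted p = 0.00417, limma). Pim2 is X-linked, and without the fourth libraries its adjusted p was 0.0731. The log2 ratio of Pim1 to Pim2 ran from -1.02 to -0.71 in NA and from -2.22 to -1.56 in WT libraries. This pair too was picked with its values known and has no test.

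Levels of different genes were compared per kilobase of transcript. In WT MPPs the order of the mean normalised counts per kilobase was Jak1 at 357, Stat3 at 290, Cish at 161, Stat5b at 107, Stat5a at 79.0, Jak2 at 72.8, Socs2 at 64.5, Socs3 at 54.6, Pim1 at 51.3 and Socs1 at 5.99. The WT libraries did not overlap between neighbours from Jak1 down to Stat5a, nor between Pim1 and Socs1. From Stat5a to Pim1 each gene overlapped the next, so that the order of neighbours was not resolved there. Pim1, at 39.3 to 63.1 in WT, still lay below Stat5a and Jak2 in every WT library. The median over all genes tested was 58.2. Jak1 stood at percentile 90.7 of the genes tested and Socs1 at percentile 7.53.

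In NA MPPs the first 5 places were the same, and Socs3 followed at 84.8 normalised counts per kilobase, Socs2 at 73.0, Jak2 at 72.4, Pim1 at 58.0 and Socs1 at 7.89. Stat5a reached 102 ± 6.28 per kilobase in NA against 79.0 ± 9.49 in WT (SD, n = 4 each). This brought it next to Stat5b, at 107 ± 7.47 in NA. The inhibitor Cish lay above Socs1, Socs2 and Socs3 per kilobase in each of the 8 libraries, from 133 to 193 in WT and from 139 to 162 in NA.

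**Figure D4:**
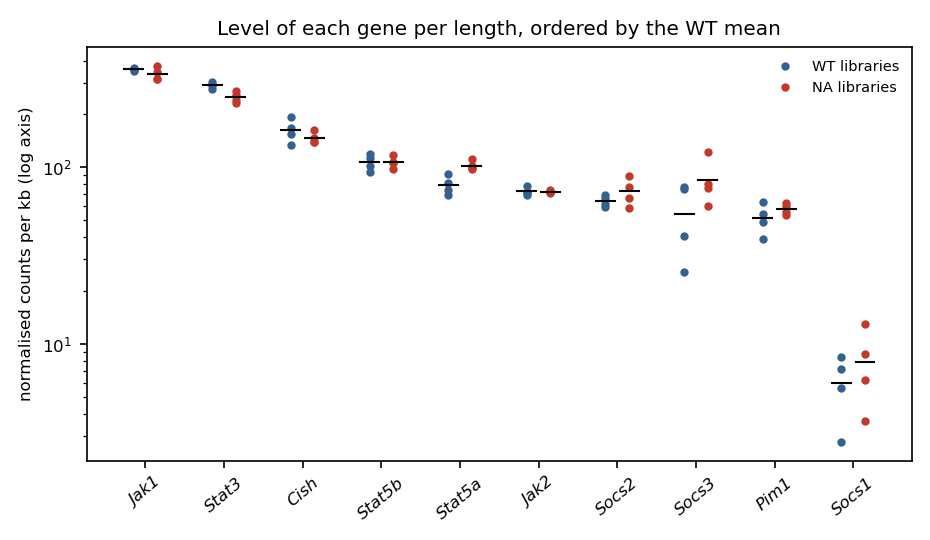
Normalised counts per kilobase of transcript (log axis) of the 10 genes, ordered by the WT mean; points are libraries, blue WT and red NA, and bars are group means. Jak1, Stat3, Cish and Stat5b are highest, 5 genes from Stat5a to Pim1 lie together, and Socs1 lies far below at 5.99 in WT and 7.89 in NA.

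Stat5a was also compared with 8999 genes of at least 50 normalised counts by the shape of its profile over the 8 libraries. The measure was the root mean square difference of centred log2 values. The nearest were Mxd4 (0.0673), a member of the MYC antagonist family, Abca3 (0.0729), a lipid transporter, and Gnai2 (0.0749), an inhibitory G protein subunit. All were higher in NA, as the measure favours, with Gnai2 at 892 ± 52.6 normalised counts in WT and 1200 ± 75.1 in NA (SD, n = 4 each).

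Beyond the 10 genes, 73 further genes of the pathway were listed by role, and 64 of them were tested. Of these, 13 were called higher and 6 lower in NA (limma), with a median log2 fold change of 0.02. These 19 calls make 29.7% of the genes tested, where 17.9% of all genes were called. The lists were drawn up with earlier results of these data known, so these shares, here and by role below, are not an independent comparison. Without the fourth libraries 8 were higher and 2 lower, where 4.58% of all genes were called.

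**Figure D5:**
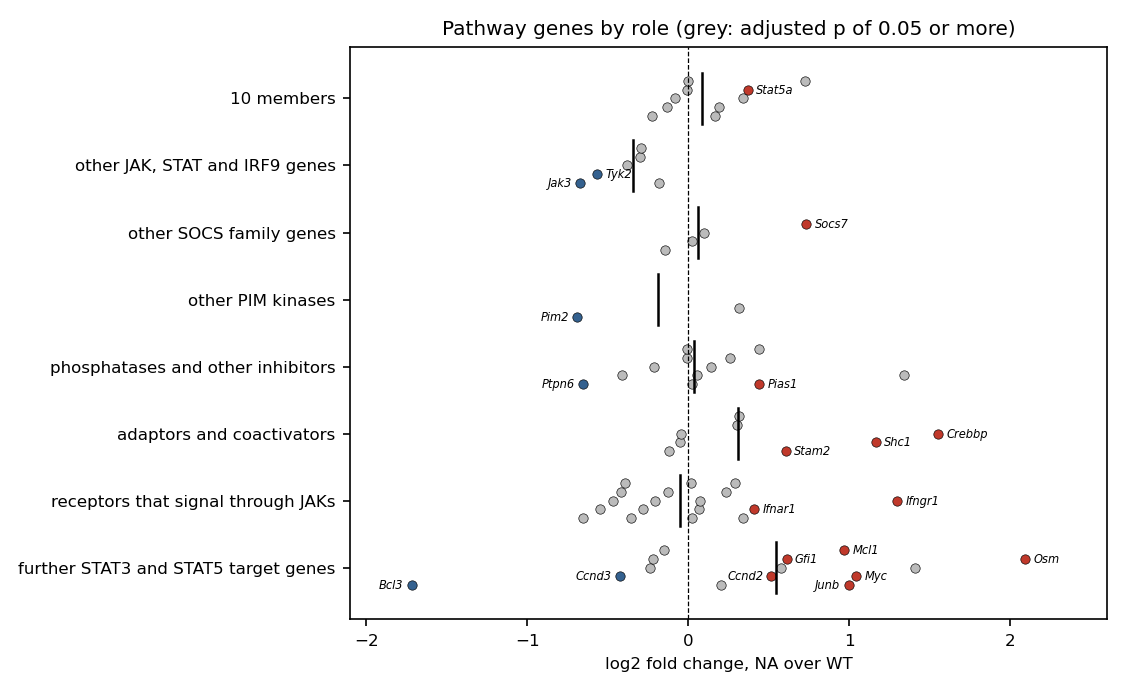
Log2 fold change, NA over WT (horizontal axis), of the genes tested in each role; red points were called higher and blue points lower by limma, grey points were not called, and black bars are list medians. Calls were made for 3 of 8 adaptors and coactivators and 8 of 14 target genes, where 17.9% of all genes were called. The 6 other JAK, STAT and IRF9 genes all lie below 0.

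All 6 other JAK, STAT and IRF9 genes listed lay below 0 with all libraries, as did 5858 of the 11451 genes tested. Of the 6, 2 were called, where 17.9% of all genes were called and 7.87% were called lower. Jak3, the kinase of the common gamma chain receptors, fell from 249 ± 37.4 to 159 ± 38.0 normalised counts (log2 fold change -0.67, adjusted p = 0.0211, limma). Tyk2, which serves interferon and interleukin 12 receptors, fell from 157 ± 13.2 to 106 ± 10.5 (SD, n = 4 each; -0.57, adjusted p = 0.0208). Neither call held without the fourth libraries (adjusted p = 0.158 for both). Leaving out NA2, NA4, WT2 or WT4 alone also ended that of Jak3 (0.0547 to 0.0718), and leaving out NA4 or WT4 that of Tyk2 (0.0705 and 0.0523). Removing the GC trend ended both (0.0646 for Jak3 and 0.0585 for Tyk2). Of the rest, Stat2 was at -0.38, Stat6 at -0.30 and Stat4 at -0.18, and none passed. Stat6 did pass without NA3 (adjusted p = 0.0487). Stat2 passed without WT2, which was low at 170 normalised counts against 270 to 314 in the other WT libraries (adjusted p = 0.0118). Jak1 and Jak2 were near level beside these: the log2 ratio of Jak2 to Tyk2 was 1.46 to 1.79 in NA and 1.02 to 1.18 in WT libraries, a pair again picked with its values known.

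Among the SOCS genes outside the 10, Socs7 rose (0.73 ± 0.21, SE, adjusted p = 0.0299, limma; 0.118 without the fourth libraries). Leaving out NA1, NA3, WT1 or WT4 alone also ended this call (adjusted p from 0.0637 to 0.0979). Socs4, Socs5 and Socs6 were at 0.02, 0.09 and -0.15 and did not pass. The third PIM kinase, Pim3, was at 0.31 and did not pass, and its 4 WT values differed 6.09-fold between highest and lowest. Like Socs3, it was lowest in WT1, at 66.6 normalised counts.

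Of 12 phosphatases and other inhibitors, 1 rose and 1 fell, or 16.7% called, near the 17.9% of all genes. Ptpn6, which encodes SHP-1, a phosphatase that removes the activating phosphates from JAKs and receptors, held 922, 750, 755 and 796 normalised counts in NA1 to NA4 and 1265, 1353, 1214 and 1230 in WT1 to WT4. The groups were far apart, and the log2 fold change of -0.65 ± 0.09 (SE) passed with all libraries (adjusted p = 0.000255, limma) and without the fourth ones (0.00696). Pias1, an inhibitor of STAT DNA binding, rose by 0.44 (adjusted p = 0.0215, and 0.216 without the fourth libraries), a call also lost without NA2, NA4, WT2 or WT4 alone (0.0505 to 0.0802).

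Adaptors and coactivators had 3 of 8 called, all higher, where 10.1% of all genes were called higher. Crebbp, the acetyltransferase CBP that STATs recruit, rose from 40.8 ± 11.1 to 120 ± 25.9 normalised counts (SD, n = 4 each; log2 fold change 1.55, adjusted p = 0.00110, limma). Shc1, an adaptor from cytokine receptors to RAS, rose by 1.16 (adjusted p = 0.000274), and both passed without the fourth libraries. Stam2, an endosomal adaptor that binds JAKs, rose by 0.61 (adjusted p = 0.0225), but not without them (0.154) or without any 1 of NA3, NA4, WT1, WT2 and WT4 (0.0530 to 0.0702).

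Of 25 receptors that signal through JAKs, 18 were tested and 2 were called, both interferon receptor chains. That is 11.1%, below the 17.9% of all genes. Ifngr1 rose from 283 ± 32.9 to 694 ± 52.0 normalised counts (SD, n = 4 each; log2 fold change 1.30, adjusted p = 4.39e-06, limma), with or without the fourth libraries. Ifnar1 rose by 0.41 (adjusted p = 0.0252), but not without them (0.158) or without any 1 of NA2, NA4, WT1, WT3 and WT4 (0.0583 to 0.0689). Il6st, the gp130 chain upstream of STAT3 and SOCS3, was at -0.55 (adjusted p = 0.155), and the beta chain gene Csf2rb was at -0.21 (0.326). The interleukin 7 receptor gene Il7r was at 0 in 7 libraries and at 0.888 in WT4, and Osmr and Prlr were at 0 in all 8.

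Further STAT3 and STAT5 target genes gave 6 calls higher and 2 lower of 14 tested, where 10.1% of all genes were called higher and 7.87% lower. Those that rose were Mcl1, a survival factor of the BCL2 family (0.97), Ccnd2, a cyclin of G1 (0.52), Myc (1.04), the cytokine gene Osm (2.09), the transcriptional repressor Gfi1 (0.61) and Junb (0.99). Bcl3, an IkB family member, fell by 1.72 and Ccnd3, another G1 cyclin, fell by 0.42. With Junb and Ccnd3 excepted, these calls were also made without the fourth libraries. Junb is one of the 20 immediate early genes as well. Its adjusted p rose from 0.0476 to between 0.0597 and 0.108 when any single library but WT2 was left out, and that of Ccnd3 rose from 0.0465 to between 0.0514 and 0.126 for any but NA1. These targets also answer to other pathways. The 5 targets among the 10 genes, Cish, Socs1, Socs2, Socs3 and Pim1, had log2 fold changes from -0.13 (Cish) to 0.72 (Socs3), and none was called.

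Markers of other cell types were checked beside these genes. Elane, Pax5, Igll1, Cd3e and Ncr1 were at 0 in all 8 libraries, but other genes of the same lists were not. Lyz2 was at 1652 to 2019 normalised counts over the 8 libraries and Prtn3 at 1371 to 2291. Cd79b was at 87.4 to 256, Lck at 112 to 294 and Nkg7 at 115 to 150. Of 10 granulocyte and monocyte genes 5 were tested, with Mpo and Prtn3 called lower in NA, and their summed level was 3139 to 3376 normalised counts in NA and 3583 to 4600 in WT libraries. Dntt, of 2 B lymphoid genes tested, and Lck, of 3 T and NK cell genes tested, were lower in NA, as was the erythroid gene Hbb-bt. Of 7 long-term stem cell genes, Procr and Hlf were higher and Tek lower. Of 7 gate genes, Ly6a and Cd48 were lower. Over all genes tested, 10.1% were called higher and 7.87% lower. The calls of Hlf, Tek, Dntt and Hbb-bt were still made without the fourth libraries. Those of Procr, Ly6a, Cd48, Mpo, Prtn3 and Lck were not (adjusted p from 0.0675 for Cd48 to 0.241 for Lck). The part of these shifts in the JAK-STAT values was not tested.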

How the data were processed

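Per the labels, polyA RNA of 1000 sorted MPPs per library was amplified as cDNA, made into Nextera XT libraries and sequenced on a NextSeq 500. The submitters' processing notes name bcl2fastq, RSEM, DESeq2 and mm10; versions and strand setting are not given in the sources used here. The deposited values are labelled as raw counts but behave as a normalised signal, with each library's RSEM counts scaled by 1 size factor. From 98.4% to 98.8% of a library's values above 0.5 were whole multiples (within 0.05) of a step of 0.888 to 1.18, and dividing by the step gave the estimated depth. Gene symbols came from GENCODE M21 (32916 rows, 93.8% of those above 0), and unnamed rows held 0.779% of the values.

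Because the values are normalised, they were tested with limma 3.58.1 (R 4.3.3) on log2(normalised count + 1), with a mean-variance trend and no covariate, for genes with at least 10 in at least 4 of 8 libraries. The added 1 shrinks changes of low genes. The adjusted p is a Benjamini-Hochberg value, and called means below 0.05. The fit was tested on simulated data. The 95% intervals are limma's and rest on the spread between libraries. The coefficients of variation given for counting error cover that error only, as amplified cDNA carried no molecular identifiers.

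The 10 genes and all lists were chosen with earlier results of these data known. Named were the 10 genes; from each other list the called genes, up to the 3 highest and 3 lowest; the close paralogs of the 10; the receptors Il6st, Csf2rb and Il7r; and the 3 profiles nearest to the called gene. Mcl1, Ccnd2, Gfi1, the marker genes and the ratio pairs were named after their values were seen. Alternatives changed the added constant, filter, scaling, trend, block, libraries, depth class and GC trend. Replicate numbers were not used to pair the samples, except as the block. Some genes of the lists are not reported here and were left out of the list counts.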

Additional observations from a re-analysis of the deposited data

Results flagged for a closer look

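In 3 of 76 groups of 4 libraries, 1 library stood apart by Dixon's test at the 95% level, and chance flags about 3.8 in 76. None of the 10 genes was among them. Osm was at 77.6 normalised counts in NA3 and at 54.1 to 56.4 in the other NA libraries. Socs6 was at 104.55 in NA1 and at 224 to 233 in the other 3, and its log2 fold change turned from -0.15 to 0.14 without NA1. Gfi1 was at 532.67 in NA4 and at 494 to 497 in NA1 to NA3.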

How the results depend on the processing

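Over all genes tested, 2053 were called, between 1125 (without NA4) and 2176 when a library was left out, 1279 without WT4 and 524 without the fourth libraries. Total count scaling gave 2240 calls, of which 41.4% were higher in NA, against 56.1% as reported and 47.8% with upper quartile scaling. Of the 10 genes, 1 was called as reported and 0 with no filter on low values, with no mean-variance trend, with depth class as a covariate or without the fourth libraries. Leaving out 1 library gave 0 to 1. Without NA3, and with upper quartile or total count scaling, the 1 gene called was Stat3 instead of Stat5a. For the further pathway genes the count of 19 became 10 without the fourth libraries and ranged from 11 (without WT4) to 21, with 12 without NA4.

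Replicate numbers were shared between the groups, and same-numbered libraries correlated at 0.0874, 0.0271, 0.0131 and 0.158 in their deviations. NA1 and NA4 correlated best with the WT library of their own number, NA2 with WT4 and NA3 with WT2. Whether the numbers pair the samples was thus not settled. With the replicate number as a block, 2004 genes, 19 further pathway genes and 2 of the 10 genes were called, Stat5a and Socs3 (adjusted p = 0.0240).

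Among named genes, 5 turned sign. Jak2 was at 0.00059 without NA2, 0.029 without WT2 (-0.031 to 0.029 when any library was left out) and 0.0078 with depth class. Stat5b was at -1.24e-06 with 5 added, -0.036 with upper quartile scaling, -0.069 with total count scaling, and -0.042, -0.00096, -0.061 and -0.021 without NA3, NA4, WT1 and WT3 (-0.061 to 0.053). Socs4 was at -0.012 and -0.044 with upper quartile and total count scaling, -0.0098, -0.057 and -0.019 without NA4, WT2 and WT3 (-0.057 to 0.091), -0.015 with depth class and -0.17 with the GC trend removed. Socs6 was at 0.14 without NA1 (-0.25 to 0.14) and Pim3 at -0.12 without WT1 (-0.12 to 0.74).

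Of 758 values of named genes under the alternatives, 650 kept direction and side of the threshold, 82 lost a call, 7 gained one and 19 turned. Of the further pathway calls, no filter ended those of Jak3 (adjusted p = 0.0607), Socs7, Stam2, Junb and Ccnd3, no mean-variance trend those of Jak3 (0.0615), Pias1, Stam2, Ifnar1, Junb and Ccnd3, and removing the GC trend those of Jak3, Tyk2, Pias1, Stam2 and Ccnd3. Socs1 had no value with a mean of at least 50. The planned count tests on reads recovered from the values were not run, because a check did not accept the values as whole reads. Socs1 has the widest interval of the 10 genes.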
